A study of Homo sapiens with 6 samples.

Results

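The genes of the synaptic vesicle and of regulated exocytosis were followed in H526 cells that had become resistant to onvansertib, an inhibitor of polo-like kinase 1. The 58 genes were taken by name from the SNARE, synaptotagmin, synapsin, complexin, RAB, active zone and vesicle protein families, and all 58 were found among the 62710 gene rows analysed. H526 is an established small cell lung cancer line. RNA from 3 libraries of parental cells (numbered 1 to 3) was compared with RNA from 3 libraries of resistant cells (numbered 7 to 9), each group extracted at 3 separate times. Both groups were kept in RPMI-1640 with fetal bovine serum. The resistant cells had been taken through rising onvansertib, from 10 nM to 75 nM in the course of more than a year, so drug exposure, time in culture and selection cannot be told apart here. All resistant libraries represent 1 resistant derivative of 1 line, nothing in the labels says that they came from separate selections, and p-values therefore measure the spread between extractions.

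Regulated exocytosis is the release of stored vesicles in response to a signal, as at the synapse or from the dense-core granules of neuroendocrine cells. A vesicle is docked by RAB GTPases and active zone scaffolds, primed by UNC13 and CAPS proteins, and fused when a VAMP on the vesicle zips together with a syntaxin and a SNAP-25 family protein on the plasma membrane. Synaptotagmins sense calcium, complexins hold and then release the assembled SNARE complex, and NSF with the SNAP adaptors takes spent complexes apart. Small cell lung cancer commonly carries neuroendocrine vesicles, and its tuft-like form carries fewer of them.

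The deposited values are gene counts normalized by the authors, called normalized values here, and are neither whole reads nor corrected for gene length between genes. Depth was estimated from the step between low values, taken as the value of 1 read, as 25708710 to 28512571 reads in parental and 22358897 to 23265065 in resistant libraries. The estimate is approximate, as is the limit built on it, since many low values were not whole multiples of that step. The limit of detection, for counting error only, was set at 3 reads, a mean normalized value of 2.83 for parental and 3.16 for resistant libraries. The 16347 genes whose 6 values averaged 10 or more entered a limma fit of log2(value + 1), and p was adjusted over all of them by the Benjamini-Hochberg method. Each log2 change given here is resistant minus parental on that log2(value + 1) scale, with its SE (standard error) or 95% interval. The added 1 shrinks the change of low genes. A library near 0 can in turn make the fitted change larger than the ratio of the group means. An exact two-sided permutation test of 3 libraries against 3 cannot go below p = 0.10. In these cells *POU2F3*, the regulator of the tuft-like form, was at 25809 ± 1178 in parental and 27273 ± 536 in resistant cells (SD, n = 3 in each). Of all 9 tuft-like markers 4 were higher (44.4%, against 17.8% of all genes tested) and 2 lower (22.2%, against 19.8%). The log2 changes of the 9 ran from -0.80 for *AVIL* to 1.77 for *TRPM5*. Of 8 small cell and neuroendocrine markers 6 were tested and all 6 were lower in resistant cells (19.8% of all genes tested were). The vesicle protein gene *SYP* was among them. Fibroblast markers summed to between 143.9 and 191.9 in parental and between 385.1 and 626.6 in resistant libraries. The sums were carried by *COL1A1* and *COL1A2*, with *DCN* under the limit of detection on average in both groups. Of 6 fibroblast markers 3 were tested and 2 were higher (17.8% of all genes tested were). The lowest log2 change was -0.73, which did not pass. Blood and endothelial markers summed to between 249.6 and 344.5 and between 456.3 and 507.6, carried by *VWF*, with *CD3E* and *HBB* at 0 throughout. The part of these shifts in the results below was not tested.

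Of the 58 genes, 50 passed the filter and 29 of these 50 were past an adjusted p of 0.05 by limma (37.7% of all genes tested were), 20 of the 50 lower (19.8% of all genes) and 9 of the 50 higher (17.8% of all genes). Without parental library 3 or resistant library 8 the rises numbered 5. A fall of at least 1 on the log2 scale was found for 11 of the 50 (22.0%, against 3.63% of all genes tested), and a rise of that size for 1, *RIMS1*, where all genes had 6.32%. In both directions together this was 24.0% of the tested exocytosis genes against 9.95%. Parental and resistant values were fully apart for 33 of the 50 (66.0%, against 49.9%). The median log2 fold change was -0.16, against -0.001 over all genes tested, and it was -0.16 also when the gene with a group under the limit of detection was set at its bound. These shares describe the list, which was chosen with earlier results of these data known, and carry no test of their own. *SYT5*, *UNC13A*, *CPLX1* and *CPLX2* had a mean under 10 in resistant cells and passed the filter through their parental values alone, so their difference is in part a condition of being tested.

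**Figure D1:**
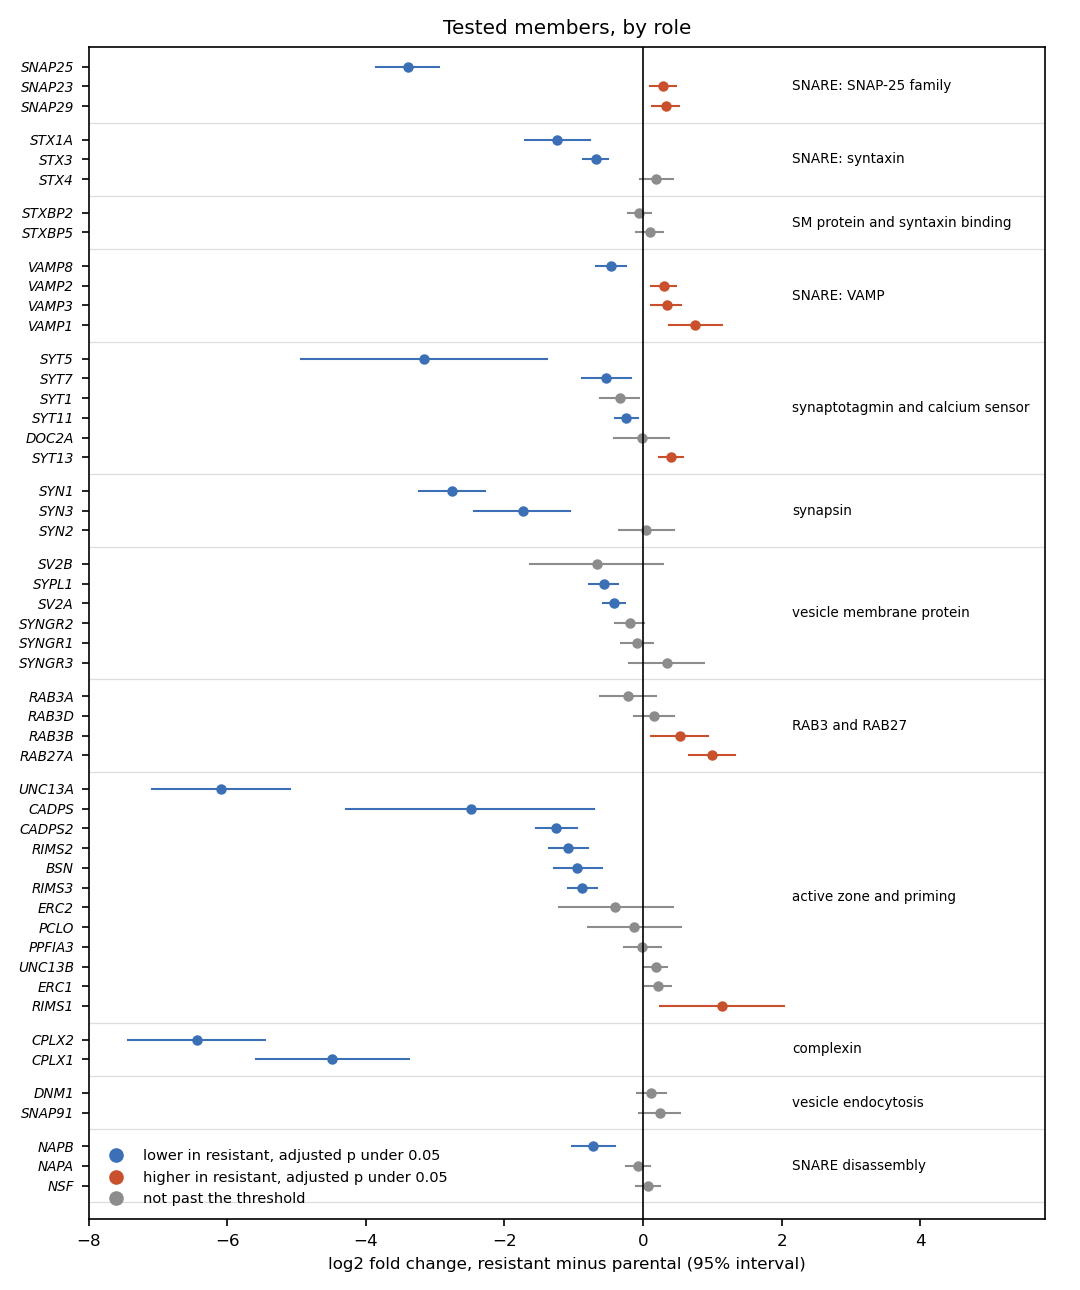
Log2 fold change (resistant minus parental, on the log2(value + 1) scale) of the 50 tested genes, grouped by role, with 95% intervals from limma. Blue points were lower and orange points higher at an adjusted p under 0.05, and grey points did not pass. The changes reach from -6.44 for *CPLX2* to 1.14 for *RIMS1*, and the 11 large falls sit in the SNAP-25 family, the syntaxins, the synaptotagmins, the synapsins, the complexins and the priming and active zone genes.

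Among the SNAREs, *SNAP25* and *STX1A*, the neuronal plasma membrane pair, fell, whereas *SNAP23* and *SNAP29* rose and *STX4* did not pass the test. *SNAP25* (ENSG00000132639, GRCh38 chromosome 20, 10172395 to 10308258), the SNAP-25 family member of neurons and neuroendocrine cells, had normalized values of 440.7, 376.6 and 323.0 in parental libraries 1, 2 and 3 and of 30.4, 43 and 32.7 in resistant libraries 7, 8 and 9. The lowest parental library was several times the highest resistant one. The log2 fold change was -3.39 (SE 0.20, limma adjusted p = 2.25e-06), and resistant cells kept 9.3% of the parental mean. Its relatives moved the other way by a small amount. *SNAP23*, which serves constitutive and regulated fusion in most tissues, went from 1114 ± 36.3 to 1365 ± 121 (SD, n = 3), a log2 change of 0.29 (limma adjusted p = 0.0217). *SNAP29*, which acts at endosomes and autophagosomes, had a log2 change of 0.33 (limma adjusted p = 0.0145). The call of *SNAP23* was lost in 5 of 14 alternatives, with adjusted p of up to 0.372 by limma once the shift of its chromosomal neighbours was removed, and that of *SNAP29* only without resistant library 8 (0.0585).

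*STX1A* (ENSG00000106089, chromosome 7, 73699206 to 73719672), the syntaxin of the synaptic plasma membrane, was at 324.8, 336.4 and 329.1 in parental and at 128.5, 104.8 and 199.3 in resistant libraries, a log2 change of -1.24 (SE 0.21, limma adjusted p = 0.00129). The parental libraries lay close together and resistant library 9 stood nearest to them, without overlap. *STX3*, a syntaxin of apical membranes and ribbon synapses, also fell, from 1459 ± 68.4 to 911.8 ± 48.6 (SD, n = 3). For *STX4*, the syntaxin of constitutive surface delivery in most cells, the log2 fold change was 0.19 (95% interval -0.05 to 0.43, limma adjusted p = 0.20).

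All 4 listed vesicle SNAREs were past the threshold (37.7% of all genes tested were), 3 of them upwards (17.8% of all genes). *VAMP2* (ENSG00000220205, chromosome 17, 8159149 to 8163546), the main synaptobrevin, was at 1200, 1284 and 1191 in parental and at 1393, 1597 and 1534 in resistant libraries, a log2 change of 0.30 (SE 0.08, limma adjusted p = 0.0147). The groups did not overlap, but the call was lost without parental library 3 (limma adjusted p = 0.0565) or resistant library 8 (0.0603). *VAMP1*, the second synaptobrevin, rose from 273.6 ± 62.2 to 454.0 ± 45.9, and *VAMP3*, the widely expressed cellubrevin, from 1123 ± 21.0 to 1425 ± 174 (SD, n = 3), a call that *VAMP3* lost in 4 of 14 alternatives. *VAMP8*, the endobrevin of late endosomes and of granules in secretory epithelia, fell from 1014 ± 50.3 to 736.9 ± 70.2. The SNARE binding proteins *STXBP2* (Munc18-2) and *STXBP5* (tomosyn, which occupies SNAREs without fusion) had log2 changes of -0.06 (95% interval -0.22 to 0.11) and 0.10 (-0.10 to 0.29), and neither passed the test.

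Of the genes that take SNARE complexes apart, 1 of 3 passed the test (37.7% of all genes tested did). *NSF* (ENSG00000073969, chromosome 17, 46590669 to 46757679), the ATPase of the reaction, was at 3753, 3188 and 3128 in parental and at 3637, 3511 and 3421 in resistant libraries, with overlapping groups and a log2 change of 0.07 (95% interval -0.10 to 0.25, limma adjusted p = 0.491). A near-identical copy of part of *NSF* lies nearby, so its reads may have been divided. Its adaptor *NAPA* (alpha-SNAP) had a log2 change of -0.07 (95% interval -0.24 to 0.10), whereas *NAPB* (beta-SNAP, the form of the brain) fell from 552.6 ± 92.3 to 332.8 ± 36.5, a log2 change of -0.72 (limma adjusted p = 0.00268).

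The synapsins tether vesicles to actin and to each other in the reserve pool. Of the 3, 2 fell (19.8% of all genes tested were lower). *SYN1* (ENSG00000008056, chromosome X, 47571901 to 47619857) was at 250, 218.8 and 189.4 in parental and at 29.7, 27.3 and 38.1 in resistant libraries, a log2 change of -2.76 (SE 0.22, limma adjusted p = 1.02e-05). *SYN3* (ENSG00000185666, chromosome 22, 32507820 to 33058381) was at 255.8, 291.4 and 291.2 and at 45.9, 95.7 and 128.6, a log2 change of -1.74 (SE 0.31, limma adjusted p = 0.00169). *SYN2* was at 114.6 ± 5.51 and 118.7 ± 15.7 (SD, n = 3), with a log2 change of 0.04 (95% interval -0.35 to 0.44). *SYN1* and *SYN3* thus separated the groups in every library, as did 49.9% of all genes tested, while the *SYN2* values overlapped.

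The stretch before the *SYN1* start is shown because it holds, in letters, the element by which the repressor REST is known to find neuronal genes. The element, RE1, was searched on both strands of the RefSeq promoter windows (GRCh38.p14, 250 bases before to 50 after an annotated start) that were found for 49 of the 58 genes. Its left arm was spelled TCAGCACC and its right arm GGACAGCG, and the whole element was also searched as a degenerate consensus of 17 letters, which overlaps both arms. The 250 bases at chrX:47619858-47620107, minus strand, lie directly before the gene as Gencode v44 places it. They are written 5′ to 3′ with the left arm and the first letters of the right arm, GGACAG, in capitals.
SYN1: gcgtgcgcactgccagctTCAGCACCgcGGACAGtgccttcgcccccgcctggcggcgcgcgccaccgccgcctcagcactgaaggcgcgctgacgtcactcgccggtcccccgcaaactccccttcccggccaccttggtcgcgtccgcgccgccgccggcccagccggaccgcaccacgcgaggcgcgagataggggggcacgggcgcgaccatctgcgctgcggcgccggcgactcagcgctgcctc

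A gene can have several windows, and the 49 genes had 78. The left arm was found in 8 of the 78 windows, from 7 genes (*SYN1*, *UNC13A*, *RPH3A*, *SYT4*, *PCLO*, *SV2B* and *SV2C*), and it is present in 1.67% of all 35116 promoter windows. The right arm was found in 4 windows, from *BSN*, *RPH3A* and *UNC13A*, against 1.63% of all windows, and the full consensus in 3 windows, from *SYN1* and *RPH3A*, against 0.0683%. The octamer ATGCAAAT, the letters read by POU factors such as POU2F3, was in no window of these genes and in 1.77% of all windows. The sites, except those of *SV2B* and *SV2C*, are set side by side to show how the letters after the left arm differ. Each has 30 bases on the strand that spells the left arm, with the same capitals.
SYN1 (chrX:47620064-47620093, minus strand): agctTCAGCACCgcGGACAGtgccttcgcc
RPH3A (chr12:112791542-112791571, minus strand): gcggTCAGCACCacGGACAGcgctaagatg
UNC13A (chr19:17688337-17688366, plus strand): tggtTCAGCACCgggggcgcGGACAGcgcc
SYT4 (chr18:43277561-43277590, plus strand): gaaaTCAGCACCtgcccccctcccctcctc
PCLO (chr7:83163030-83163059, plus strand): gctcTCAGCACCgatttaaaggagcccagt
*SYN1* and *RPH3A* hold GGACAG at the same distance from the left arm, and of the pair only *RPH3A* goes on to the full right arm as spelled, which *SYN1* does not hold. *UNC13A* holds the full right arm farther away, across its annotated start. *SYT4* and *PCLO* hold the left arm alone, as do *SV2B* and *SV2C*, which are not shown. Among all 8 genes with a match to either arm, *SYN1* fell and so did *UNC13A*, while *PCLO* had a log2 change of -0.13 (95% interval -0.80 to 0.54), *SV2B* one of -0.67 (-1.63 to 0.29), and *BSN* fell with one of -0.95. *RPH3A* and *SYT4* were listed at 0 in all 6 libraries, and *SV2C* was under the limit of detection. *REST* itself, which is outside the list and was looked at after its values were known, went from 895.1 ± 79.2 to 1392 ± 91.0 (SD, n = 3), a log2 change of 0.64 (limma adjusted p = 0.000447). A match is only a match of letters, and its part in these levels was not tested.

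Both complexins, the small proteins that clamp the SNARE complex and prepare it for calcium, were close to or under the limit of detection in resistant cells. *CPLX2* (ENSG00000145920, chromosome 5, 175796310 to 175884021) was at 146.3, 145.7 and 157.9 in parental libraries and at 1.74, 0 and 0.899 in resistant libraries, all 3 under the limit, so that it was at least 47.4-fold lower when the limit is averaged over the group. *CPLX1* (ENSG00000168993, chromosome 4, 784957 to 826129) was at 88.4, 125.5 and 74.6 and at 5.05, 5.46 and 0.942, with resistant cells at 3.97% of the parental mean. Neither gene had a resistant library near its lowest parental library. The fitted log2 fold changes were -6.44 and -4.49 (limma adjusted p = 4.5e-06 and 9.09e-05), and their size depends on the pseudocount, since a pseudocount of 10 gave -3.88 and -2.93. Without resistant library 9 that of *CPLX1* was -3.92.

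**Figure D2:**
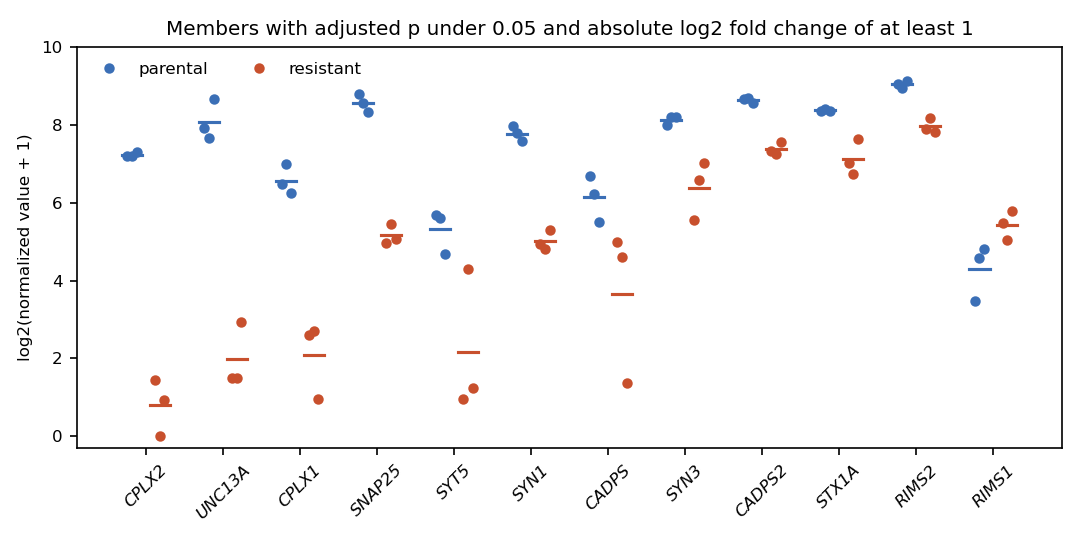
Normalized values as log2(value + 1) in each library for the 12 genes with an adjusted p under 0.05 by limma and an absolute log2 change of at least 1, ordered by fold change. Each dot is 1 library (parental blue, resistant orange) and each bar the group mean; in *CPLX2* and *UNC13A* the resistant dots lie near the bottom of the scale, in *SYT5* and *CADPS* they spread widely, and only *RIMS1* is higher in resistant cells.

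The calcium sensors differed from one another. *SYT1* (ENSG00000067715, chromosome 12, 78863993 to 79452008), the fast sensor of synaptic release, was at 430.0, 381.0 and 435.4 in parental and at 377.3, 300.7 and 311.4 in resistant libraries, which do not overlap but lie close. Its log2 change of -0.34 (95% interval -0.62 to -0.06, limma adjusted p = 0.0597) did not pass after adjustment. *SYT5* (ENSG00000129990, chromosome 19, 55171196 to 55180289), a calcium sensor of dense-core vesicles, was at 50.4, 47.9 and 24.5 and at 0.928, 18.7 and 1.37, a log2 change of -3.16 (SE 0.80, limma adjusted p = 0.011), which passed with the intensity trend but not without it (0.0514). Resistant cells kept 17.1% of the parental mean of *SYT5*, a smaller fall than the fitted one. Resistant library 8 stood well above the other 2, and without it the log2 fold change was -4.23, while without library 7 it was -2.55. *SYT7*, the slow sensor of high affinity, fell from 949.6 ± 173 to 658.1 ± 121 (SD, n = 3, limma adjusted p = 0.0226), and the call was lost in 5 of 14 alternatives. *SYT11* and *SYT13*, synaptotagmins that bind calcium poorly or not at all, moved in opposite directions, with log2 changes of -0.24 and 0.40 (limma adjusted p = 0.0237 and 0.00256), and the call of *SYT11* was lost in 4 of 14 alternatives. They were the most abundant of the listed synaptotagmins. *SYT11* made up between 57.5% and 65.3% of the summed value of that list per kilobase of the longest transcript in every library. *SYT6*, outside the list, had 378.2 and 515.5 per kilobase in parental and resistant cells, above *SYT13* at 308.0 and 406.1. *DOC2A*, a sensor of high affinity for spontaneous release, had means of 435.5 in both groups. *SYT2* had means of 3.08 and 2.81, and *SYT4* was listed at 0 in all 6 libraries.

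Priming makes a docked vesicle ready to fuse, and 3 of its 4 listed factors fell. *UNC13A* (ENSG00000130477, chromosome 19, 17601336 to 17688365) encodes Munc13-1, which opens syntaxin. It was at 239.2, 199.9 and 403.0 in parental and at 1.83, 1.83 and 6.65 in resistant libraries, where 2 of the 3 libraries lay under the limit of detection. The log2 fold change was -6.09 (SE 0.44, limma adjusted p = 6.57e-06) and -4.39 with a pseudocount of 10. Its relative *UNC13B* (Munc13-2), found outside neurons too, was at 1437 ± 42.5 and 1630 ± 82.6 (SD, n = 3), a log2 change of 0.18 (95% interval 0.02 to 0.34, limma adjusted p = 0.0736). *CADPS* and *CADPS2* encode the CAPS proteins that prime dense-core vesicles, and both fell. *CADPS2* (ENSG00000081803, chromosome 7, 122318411 to 122886759) was at 404.2, 409.7 and 377.3 and at 159.2, 151.9 and 187.4, a log2 change of -1.26 (SE 0.13, limma adjusted p = 6.74e-05). *CADPS* (ENSG00000163618, chromosome 3, 62398346 to 62875416) was at 101.7, 74.3 and 44.5 and at 30.8, 23.2 and 1.56, a log2 change of -2.49 (SE 0.80, limma adjusted p = 0.0334). Resistant cells kept 25.2% of the parental mean of *CADPS*, a smaller fall than the fitted one. Resistant library 9 stood below the other 2, and without it the log2 change of *CADPS* was -1.35, against -3.16 without library 7. The call of *CADPS* was lost without parental library 1 (limma adjusted p = 0.113) or 2 (0.0741), and without the trend (0.112).

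The scaffolds of the active zone, which hold vesicles beside calcium channels, did not move as a block. *RIMS2* (ENSG00000176406, chromosome 8, 103500610 to 104254430), a RIM protein that binds RAB3 and Munc13, was at 533.2, 495.6 and 553.9 in parental and at 238.7, 287.7 and 224.3 in resistant libraries, a log2 change of -1.08 (SE 0.13, limma adjusted p = 0.000131). *RIMS3*, the short form that carries the C-terminal end of RIM alone, fell from 1323 ± 129 to 718.0 ± 50.2, and *BSN* (Bassoon), a giant organizer of the zone, from 491.8 ± 39.0 to 257.8 ± 49.8 (SD, n = 3). These 3 genes separated the groups in every library, as did 49.9% of all genes tested. *RIMS1* (ENSG00000079841, chromosome 6, 71886550 to 72403150) went the other way, at 10.2, 22.8 and 27.3 and at 43.9, 31.9 and 53.8, a log2 change of 1.14 (SE 0.40, limma adjusted p = 0.0473). This was a low gene near the threshold, and its call held in 3 of the 13 alternatives that tested it, with adjusted p of up to 0.147 by limma without resistant library 9. *PCLO* (Piccolo), the partner of Bassoon, was at 587.4 ± 103 and 574.9 ± 247, with resistant library 9 at 289.8 and libraries 7 and 8 at 724.0 and 710.9. *ERC1*, *ERC2* and *PPFIA3*, which link RIM, liprin and the cytoskeleton, did not pass, with log2 changes of 0.22, -0.40 and -0.01.

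Of 7 vesicle membrane genes 6 were tested and 2, *SV2A* and *SYPL1*, fell (33.3%, against 19.8% of all genes tested). *SV2A*, the most abundant of the 58 genes per kilobase and a regulator of release in neurons and endocrine cells, fell from 7147 ± 320 to 5354 ± 428 (SD, n = 3), a log2 change of -0.42 (limma adjusted p = 0.00122). *SYPL1* (pantophysin), the relative of synaptophysin in non-neuronal vesicles, fell from 2625 ± 346 to 1756 ± 74.6, a call that was lost once the shift of its chromosomal neighbours was removed. For the synaptogyrins *SYNGR1*, *SYNGR2* and *SYNGR3* the log2 fold changes were -0.09, -0.19 and 0.34 and none passed. *SV2B* had means of 53.2 and 32.1 and a log2 change of -0.67 (95% interval -1.63 to 0.29), and *SV2C* was under the limit of detection in all 6 libraries.

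The RAB GTPases that guide vesicles to the membrane contained no fall past the threshold. *RAB3A* (ENSG00000105649, chromosome 19, 18196784 to 18204042), the RAB of synaptic vesicles, was at 291.4, 482.4 and 380.0 in parental and at 281.2, 341.3 and 349.6 in resistant libraries, which overlap, a log2 change of -0.22 (95% interval -0.62 to 0.18, limma adjusted p = 0.36). *RAB3D*, found in exocrine granules, had a log2 change of 0.16 and did not pass. *RAB27A*, which tethers granules in many secretory cells, was at 220.6, 221.7 and 177.7 and at 375.8, 489.1 and 378.6, a log2 change of 1.00, just under 1 before rounding (SE 0.15, limma adjusted p = 0.000634). *RAB3B* had a log2 change of 0.53 (limma adjusted p = 0.0443), with overlapping values and a call lost in 7 of 14 alternatives. *RAB27B* was at 0 in each parental library and passed the limit of detection only in resistant library 9, at 21.1. *RAB3C* was at 10.5, 5.48 and 5.74 in parental libraries and listed at 0 in all 3 resistant libraries, at least 2.29-fold lower, and was not tested. The RAB3 effector *RPH3A* was listed at 0 throughout.

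Of 3 listed genes that retrieve vesicle membrane after fusion, *DNM1* and *SNAP91* were tested and neither passed. *DNM1*, the neuronal dynamin, was at 2971 ± 283 and 3225 ± 331 (SD, n = 3), with a log2 change of 0.12 (95% interval -0.09 to 0.33), and *SNAP91* (AP180), the clathrin adaptor of synapses, had one of 0.24 (95% interval -0.06 to 0.53). *AMPH* (amphiphysin) and the liprin *PPFIA2* were under the filter, with means of 1.37 and 5.57 in parental and 7.31 and 2.13 in resistant cells.

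Set per kilobase of the longest annotated transcript, so that relatives can be compared in level, *SNAP25* and *UNC13A* were a minor part of their families in parental cells already. *SNAP25* made up between 7.12% and 9.38% of the SNAP-25 family value in parental and between 0.546% and 0.837% in resistant libraries, while the family sum was between 683.7 and 725.6 and between 750.5 and 857.8 per kilobase. *UNC13A* made up between 16.4% and 29.4% and between 0.157% and 0.626% of the UNC13 pair, whose sum was between 120.4 and 137.4 and between 106.3 and 117.0. In both families the widely expressed relatives made up the rest. The synapsin and complexin sums fell with their members, from between 127.3 and 139.3 to between 47.7 and 54.2 for synapsins, and from between 66.8 and 88.4 to between 0.625 and 2.73 for complexins. *SYN2* was between 20.7% and 24.6% of the synapsin value in parental and between 47.9% and 68.4% in resistant libraries. Among the VAMPs, *VAMP8* held between 50.7% and 52.5% and between 35.9% and 38.9%. Other family sums fell too, that of RIM from between 233.4 and 265.0 to between 131.3 and 142.7. The CAPS sum fell from between 70.3 and 85.1 to between 29.3 and 31.8. The sums of the plasma membrane syntaxins and of SV2 also lay below their parental ranges, and those of RAB27 and ERC lay above them. The 21 genes with a higher parental value per kilobase than *STX1A*, the highest of the large falls, had log2 fold changes between -0.88 and 0.40. The longest transcript need not be the one in use, so the levels between relatives are approximate. These shares cover only the listed genes of each family, are a description and carry no test.

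**Figure D3:**
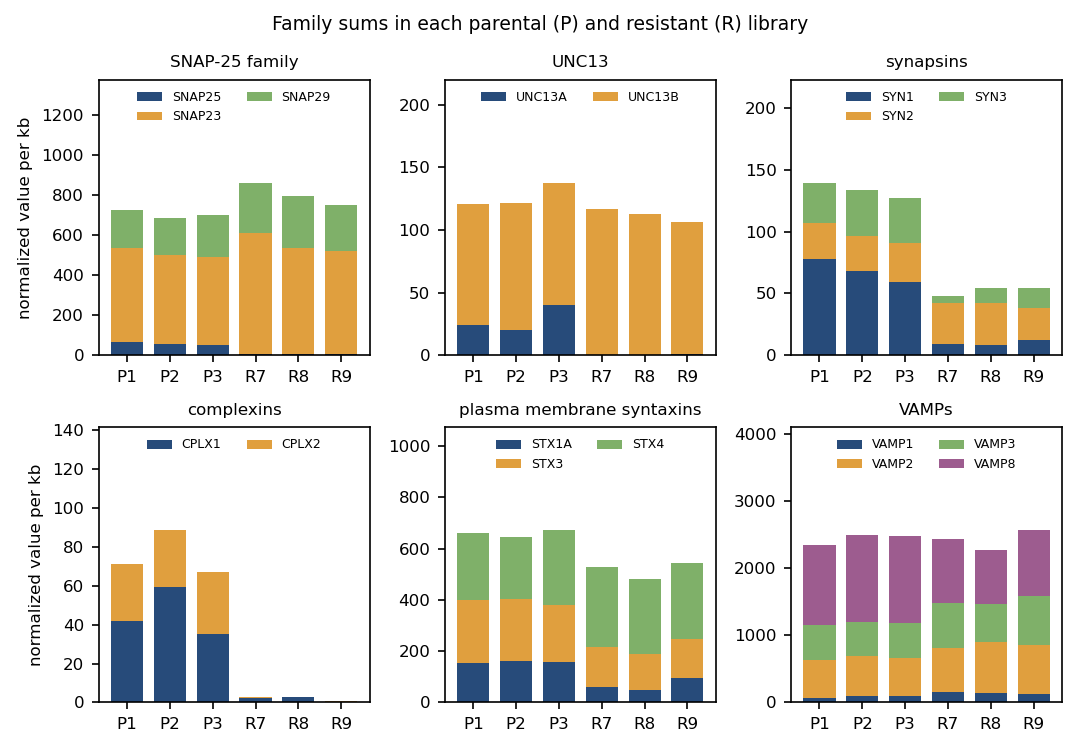
Stacked normalized values per kilobase of the longest transcript in each parental (P1 to P3) and resistant (R7 to R9) library for the listed genes of 6 families. Each panel has its own scale from 0. The SNAP-25, UNC13 and VAMP totals stay near their parental height while *SNAP25* and *UNC13A* shrink to a thin or invisible base. The synapsin and complexin columns drop, and the syntaxin columns are lower in every resistant library.

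In some chromosomal stretches the median gene had shifted, so each gene was set beside the 50 nearest tested genes of its chromosome. The 11 genes with large falls lie on 9 chromosomes, and for 7 of them the neighbours had a median log2 fold change within 0.1 of 0. Around *SNAP25* the median was 0.02, around *UNC13A* and *CPLX1* -0.09, around *SYN1* -0.07 and around *SYN3* 0.01. A median of 0.3 or more in size was found around 9 of the 50 genes. *STX1A* and *CADPS2* on chromosome 7 had neighbours at -0.49 and -0.38, and after the shift was removed their log2 fold changes were -0.74 and -0.82 (limma adjusted p = 0.0211 and 0.00137). *SYPL1*, also on chromosome 7, had neighbours at -0.47 and went to -0.09 (limma adjusted p = 0.443). *SYT1* on chromosome 12 had neighbours at -0.44 and went to 0.13, and *RAB27A* on chromosome 15 had neighbours at 0.52 and went to 0.42 (limma adjusted p = 0.0727). With this centring 19 of the 20 falls and 5 of the 9 rises were still past the threshold. Of all 16347 genes tested, 2620 were lower and 2333 higher with it, against 3244 and 2917 without it. Gene copies were not measured here.

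**Figure D4:**
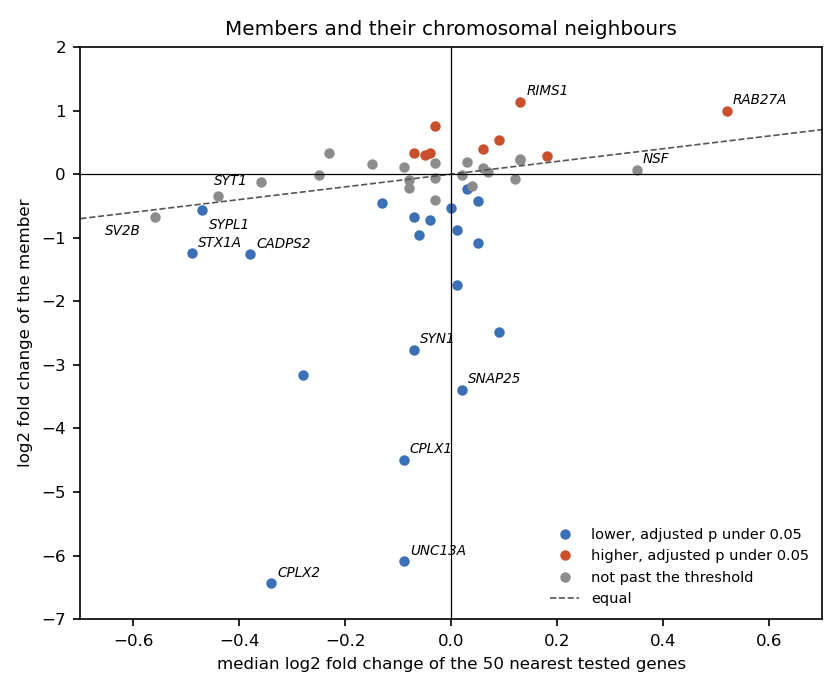
Log2 fold change of each tested gene (vertical) against the median log2 change of the 50 nearest tested genes on its chromosome (horizontal), with the dashed line marking equal change. *SNAP25*, *UNC13A*, *CPLX1* and *SYN1* lie far below the line with neighbours near 0, whereas *SYT1*, *SV2B* and *SYPL1* lie on or near it.

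Other genes of the pathway were taken from lists written by family, with earlier results of these data known. Of 60 further exocytosis genes 43 were tested, 9 were higher (20.9%, against 17.8% of all genes tested) and 11 lower (25.6%, against 19.8%), shares near those of all genes. The largest fall was that of *SYP* (synaptophysin), the marker protein of the vesicle membrane, from 1334 ± 126 to 301.4 ± 54.7 (SD, n = 3), a log2 change of -2.15 (limma adjusted p = 2.96e-06). *RIMBP2*, which links RIM to calcium channels, fell by 1.12 on the log2 scale with neighbours at -0.63. In the other direction *BAIAP3*, an UNC13 relative of dense-core vesicle traffic, went from 17.7 ± 7.09 to 151.3 ± 41.0, a log2 change of 3.07 (limma adjusted p = 0.000111), and the RAB27 effector *SYTL4* rose by 1.70 on the log2 scale (limma adjusted p = 0.00552). Of 10 vesicle transporters 6 were tested, 2 higher (33.3%, against 17.8% of all genes tested) and 2 lower (33.3%, against 19.8%). Among them *SLC17A8* (a glutamate transporter) had a log2 change of -3.14 and *SLC30A3* (a zinc transporter) one of 2.44. *SLC30A3* had a parental mean of 5.7 and passed the filter through its resistant values alone. A pseudocount of 10 gave *SLC30A3* a log2 change of 1.53.

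The same count was made for neighbouring steps of traffic. Of 30 SNAREs and SNARE regulators of the Golgi and endosomes all 30 were tested, 2 were higher and 6 of the 30 lower (19.8% of all genes tested were), with *STX17* and *BNIP1* the only ones past 1, at -1.01 and -1.32. After the neighbours' shift was removed *STX17* no longer passed, and *BNIP1* passed with a log2 change of -0.92. Of 32 endocytosis and recycling genes 11 were higher (34.4%, against 17.8% of all genes tested) and 2 lower (6.25%, against 19.8%). After the neighbours' shift was removed 7 of them were higher, where 2333 of all 16347 genes tested were. Past 1 before that step were *SYNJ1*, *PACSIN1* and *PACSIN3* at 1.07, 1.01 and 1.13. *SYNJ1* lies on chromosome 21 with neighbours at 0.97 and did not pass once their shift was removed. Of 24 subunits and partners of the V-ATPase, the pump that acidifies vesicles, 20 were tested. Of the 20, 10 were lower (19.8% of all genes tested were) and 2 higher. After the neighbours' shift was removed 6 of them were lower, where 2620 of all 16347 genes tested were. Before that step the only one past 1 was *ATP6V0E1*, at -1.11, and after it *ATP6V0E1* was at -0.71. Of 12 exocyst genes 11 were tested, 3 were lower (27.3%, against 19.8% of all genes tested) and 1 higher (9.09%, against 17.8%). *EXOC3L1* was at -1.39.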

How the data were processed

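RNA of 3 parental and 3 resistant H526 libraries was sequenced. The authors trimmed reads with Trimmomatic 0.38, counted them per gene with RSEM 1.3.1 on GRCh38 (Gencode v43) and divided by DESeq2 1.30.0 normalization factors, so the deposited values are a non-negative signal. Of 62757 rows, 47 duplicate rows of pseudoautosomal genes were dropped. Gencode v44 gave symbols for 62639 rows.

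Between 33.7% and 59.1% of values under 10 reads were whole multiples of 1 read within 0.02 reads, so whole reads were not recovered and no count test, the study's own kind, was run.

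All genes with a mean of 10 or more were fitted with limma 3.58.1 in R 4.3.3 (log2 scale, pseudocount 1, intensity trend, condition as the only term), after a check on simulated data. Per-library values are given for members past the threshold with an absolute log2 change of 1 or more and for *SNAP25*, *STX1A*, *VAMP2*, *SYT1*, *NSF* and *RAB3A*, and for *RAB27A*, which was added after its values were seen. Other members are described by role. From other lists, *SYP* and, by p, at most 4 genes that passed with an absolute log2 change of 1 or more were named, and some genes are not reported here. Members were listed by symbol, and members and lists were chosen with earlier results of these data known. Centring subtracted the median deviation of neighbouring genes.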

Additional observations from a re-analysis of the deposited data

How the results depend on the processing

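The fit was repeated with pseudocount 0.1 or 10, without the filter, with a mean of 50 required, after TMM or quantile scaling, without the intensity trend, with 1 library omitted, and after centring on chromosomal neighbours. Of the 29 members past the threshold, 17 stayed past it in every alternative that tested them, and the count shared with the reported calls was lowest without the trend, 21. No member that had passed changed direction. The higher members numbered 5 without the trend and from 5 to 8 with 1 library omitted, lowest without parental library 3 or resistant library 8.

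Without the trend, 7 other exocytosis genes, 1 endocytosis gene and 1 vesicle transporter were lower, where 2614 of all 16347 genes were. With neighbour centring, 7 endocytosis genes and 1 Golgi or endosomal SNARE were higher and 6 V-ATPase genes lower. In that setting 2333 of all 16347 genes were higher and 2620 lower. A mean of 50 and quantile scaling each left 1 vesicle transporter higher. With 1 library omitted, counts ran from 1 to 3 for lower endocytosis genes, from 1 to 2 for higher and for lower transporters, from 2 to 4 for higher V-ATPase genes and from 1 to 2 for higher exocyst genes.

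Members that did not pass and changed sign in log2 change were, with neighbour centring, *SYT1* at 0.13, *SYN2* at -0.02, *PCLO* at 0.17, *DOC2A* at 0.24 and *NSF* at -0.25, and with quantile scaling *SYN2* at -0.07 and *PPFIA3* at 0.04. With 1 library omitted the log2 change ran from -0.02 to 0.16 for *SYN2*, -0.15 to 0.00 for *SYNGR1*, -0.36 to 0.30 for *PCLO*, -0.16 to 0.19 for *DOC2A*, -0.81 to 0.04 for *ERC2* and -0.11 to 0.09 for *PPFIA3*. Causes were not tested beyond the change of setting itself. No paired analysis was possible because the groups share no replicate numbers in the labels. With 3 libraries a group, a low gene such as *RIMS1* or *CADPS* rests on few reads.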
